A study of Mus musculus with 8 samples.

Results

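The genes described here are 10 genes that mark foamy, lipid-associated macrophages: *Gpnmb*, *Trem2*, *Spp1*, *Lpl*, *Cd9*, *Cd63*, *Lgals3*, *Fabp4*, *Fabp5*, and *Itgax*. They were picked by name, with earlier results of these data known, among the 46078 Ensembl gene identifiers in the count tables, of which 45143 had a mouse symbol. Comparisons of the 10 with all genes are therefore descriptions. All 10 genes were found and all passed the filter on low counts, which left 14736 genes for testing.

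Bulk RNA-Seq was performed on stroke infarcts of 18-month-old wild type C57BL/6J mice, male per the study's methods, that all underwent DH stroke, a distal occlusion of the middle cerebral artery followed by hypoxia. The vehicle group received sterile PBS and the other group received hydroxypropyl-β-cyclodextrin (HPβCD), a sugar ring that takes up cholesterol, at 4 g/kg. Injections were subcutaneous, 3 per week, from 1 week after stroke over 6 weeks, and infarcts were cut out by eye at 7 weeks. Each group has 4 libraries, named here by group and replicate number, and nothing in the labels ties them to a batch. The labels do not say that each library is a separate animal, so p values measure the spread between these libraries. No uninjured or untreated tissue is compared here.

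Macrophages that engulf myelin and dying cells take in more cholesterol and fatty acid than they can export, store it in droplets, and become foamy. In atherosclerotic plaques, obese fat, and demyelinated brain, such cells share a set of genes: receptors that sense lipid (*Trem2*), a lysosomal glycoprotein (*Gpnmb*), tetraspanins of the endosome and cell surface (*Cd63*, *Cd9*), secreted proteins (*Spp1*, *Lgals3*), and proteins that release or carry fatty acids (*Lpl*, *Fabp4*, *Fabp5*). None of these genes belongs to macrophages alone, so some of them are set beside markers of other cells that use them. In bulk tissue, fewer cells of a type and less RNA per cell cannot be told apart.

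In HPβCD-treated infarcts, *Gpnmb* rose 2.60-fold and was the 1 gene of the 10 that passed the test. The test was the quasi-likelihood test of edgeR, and p values were adjusted over all tested genes by the Benjamini-Hochberg method, with a threshold of 0.05. Over all tested genes, 1.17% passed in that direction. Fold changes were above 1 for 9 of the 10 genes, against 45.9% of all tested genes, and an unadjusted p under 0.05 was reached by 6 of them, all higher, against 11.8% of all tested genes. The 4 HPβCD libraries all lay above the 4 vehicle libraries for *Gpnmb*, *Lgals3*, and *Cd63*, which is 3 of 10 genes against 8.77% of all tested genes. The median log2 fold change of the 10 genes was 0.64, and that of all tested genes was -0.05. DESeq2 on the same counts called 5 of the 10 genes higher (*Gpnmb*, *Fabp5*, *Lgals3*, *Trem2*, and *Cd63*), where it called 5.92% of all genes higher, and limma-voom called 4 of them, where it called 11.1%.

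Some libraries differed in cell content. Libraries held 16616909 to 32933164 gene counts. Summed neuron markers (led by *Snap25*, *Syt1*, and *Slc17a7*) were 1037 CPM (counts scaled to library size by edgeR's TMM factors) in vehicle 1 and 6109 CPM in vehicle 3, against 7.84 to 84.5 CPM in the other 6 libraries. The counts above were therefore repeated without these 2 libraries. Fold changes were then above 1 for 8 of the 10 genes, against 51.2% of all tested genes, and the groups did not overlap for 4 of them, against 17.7%. *Gpnmb* then had a log2 fold change of 1.11 and an adjusted p of 0.0647 in edgeR, and no gene of the 10 passed in edgeR, which called 0.485% of all genes higher. An unadjusted p under 0.05 was then reached by 5 genes that were higher, against 12% of all genes, and by *Lpl*, which was lower. DESeq2 without the same 2 libraries called 3 of the 10 higher (*Gpnmb*, *Fabp5*, and *Lgals3*), against 4.8% of all genes, and limma-voom called 4 of them (the same 3 and *Trem2*), against 11.3%. The median of the 10 was then 0.39 in edgeR. Fibroblast markers (led by *Dcn*, *Col1a2*, and *Col3a1*) summed to 2369 to 6074 CPM in vehicle libraries and 8748 to 9351 CPM in HPβCD libraries, with 2 of 7 tested genes called higher. Their part in the results below was not tested.

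**Figure D1:**
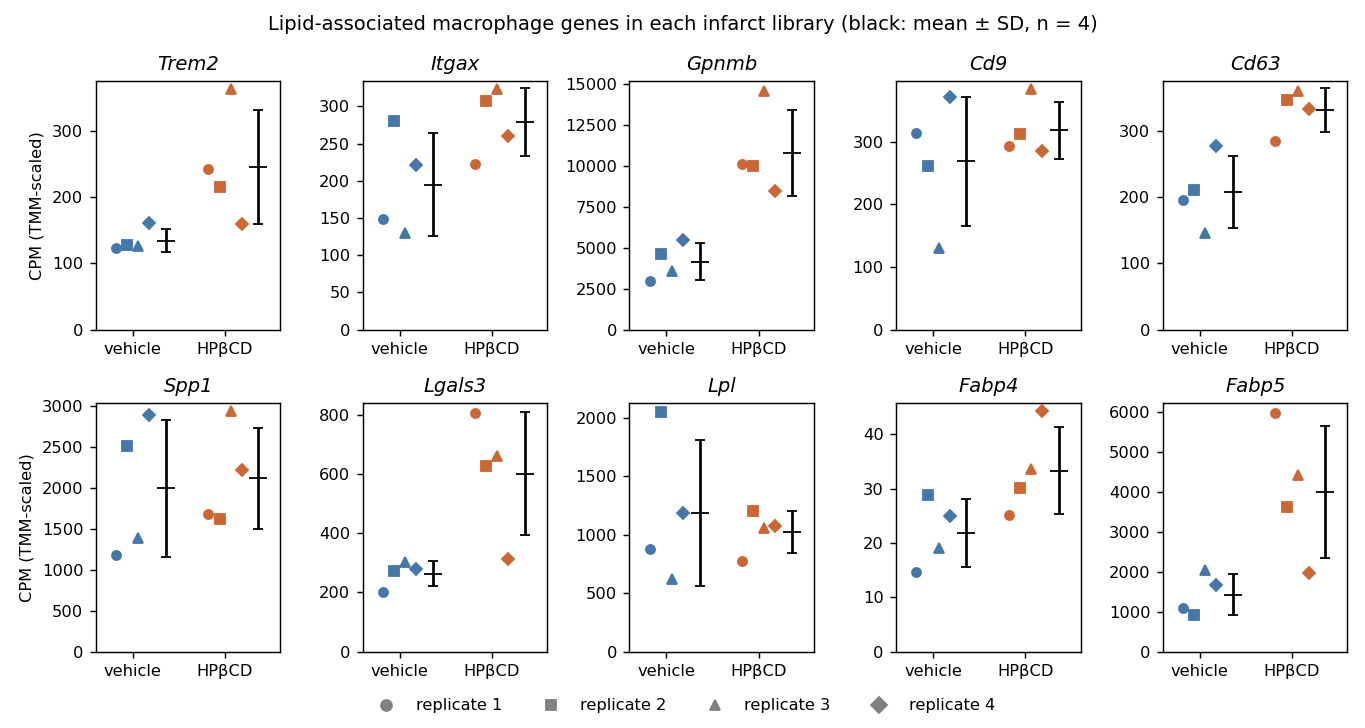
CPM after TMM scaling (y axis, linear from 0) of the 10 genes in the 4 vehicle (blue) and 4 HPβCD (orange) libraries, with symbols for replicate numbers and the mean ± SD (n = 4) in black. The groups are apart for *Gpnmb*, *Cd63*, and *Lgals3*, and overlap for the other 7 genes.

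The first members by role are receptors of the cell surface. *Trem2* (ENSMUSG00000023992, chr17:48346401-48354147, plus strand, GRCm38, GENCODE M21) encodes a receptor for lipids and lipoproteins that signals through the adaptor Tyrobp. Its level was 123, 127, 126, and 160 CPM in vehicle 1 to 4 and 242, 215, 362, and 159 CPM in HPβCD 1 to 4. HPβCD 3 was highest, and the groups overlapped only because HPβCD 4 lay just under vehicle 4. The log2 fold change was 0.87 (SE 0.24) with an adjusted p of 0.0785 in edgeR and 0.0132 in DESeq2. Of 12 genes of Trem2 signalling, all tested, 10 had a fold change above 1 and none passed in edgeR, where 2 had an unadjusted p under 0.05; DESeq2 called 1, the adaptor *Tyrobp*. *Tyrobp* had a log2 fold change of 0.94 (adjusted p 0.0724 in edgeR). The genes of that list with the highest CPM were *Adam10*, a protease that sheds the receptor (0.26, adjusted p 0.518), *Tyrobp*, and *Ms4a6d* (0.51, adjusted p 0.254). The 3 tested relatives of *Trem2* were lower and did not pass: *Treml2* had a log2 fold change of -0.07, *Trem1* of -0.47, and *Treml4* of -1.46, the latter pair at under 2 CPM on average.

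*Itgax* (ENSMUSG00000030789, chr7:128129547-128150657, plus strand) encodes the integrin CD11c, which is carried by dendritic cells and by lipid-laden macrophages and microglia. It was at 148, 280, 130, and 221 CPM in vehicle 1 to 4 and at 223, 308, 323, and 260 CPM in HPβCD 1 to 4. Vehicle 1 and 3, the libraries rich in neuron markers, were the lowest, and without them the log2 fold change fell from 0.51 (SE 0.26, adjusted p 0.229) to 0.17. Its partner chain *Itgb2* had a log2 fold change of 0.81 (adjusted p 0.0636), with groups that did not overlap. The other tested chains that pair with *Itgb2* gave -0.13 for *Itgam* and -0.50 for *Itgal*. A predicted gene on the same strand overlaps 68.7% of the exon length of *Itgam*, so its counts may miss reads that fall on both genes. Dendritic cell markers (led by *Zbtb46*, *Clec9a*, and *Ccr7*) summed to 25.7 to 49.9 CPM in vehicle libraries and 36.6 to 53.6 CPM in HPβCD libraries, with 0 of 6 called in edgeR or DESeq2 and 1 with an unadjusted p under 0.05.

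*Gpnmb* (ENSMUSG00000029816, chr6:49036546-49070929, plus strand) encodes a transmembrane glycoprotein of late endosomes and lysosomes that is made by macrophages under lysosomal load, by pigment cells, and by osteoclasts. It was at 2947, 4627, 3567, and 5475 CPM in vehicle 1 to 4 and at 10095, 10027, 14613, and 8476 CPM in HPβCD 1 to 4. The lowest HPβCD library was thus well above the highest vehicle library. The log2 fold change was 1.38 (SE 0.28, 95% interval 0.75 to 2.01), with an adjusted p of 0.0483 in edgeR. That call sat at the threshold: it held without vehicle 3 (adjusted p 0.0428) and was lost when any 1 of the other 7 libraries was left out, with log2 fold changes between 1.20 and 1.55 and adjusted p values up to 0.175. Most of these fits called few genes of any kind: edgeR called none of all tested genes without vehicle 1, vehicle 4, HPβCD 2, or HPβCD 3, where 2922 to 4216 had an unadjusted p under 0.05, and 4 without HPβCD 1. DESeq2 gave 5.1e-05 and limma-voom 0.00794.

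Promoters of 7 of the 10 genes were found in RefSeq (GRCm38.p6), each running from 250 bases before to 50 after the start site. The promoters of 3 genes are shown, because *Gpnmb* and *Itgax* share 1 of the motifs searched and *Trem2* holds a pair of others. Capitals mark matches, read on the printed strand, and all 3 genes lie on the plus strand.
Gpnmb, chr6:49036268-49036567: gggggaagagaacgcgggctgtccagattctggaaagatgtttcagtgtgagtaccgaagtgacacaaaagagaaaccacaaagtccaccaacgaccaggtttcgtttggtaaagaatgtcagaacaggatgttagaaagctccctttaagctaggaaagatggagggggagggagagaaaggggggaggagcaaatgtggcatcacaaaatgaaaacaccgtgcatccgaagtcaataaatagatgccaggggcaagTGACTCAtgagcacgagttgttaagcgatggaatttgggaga
Itgax, chr7:128129300-128129599: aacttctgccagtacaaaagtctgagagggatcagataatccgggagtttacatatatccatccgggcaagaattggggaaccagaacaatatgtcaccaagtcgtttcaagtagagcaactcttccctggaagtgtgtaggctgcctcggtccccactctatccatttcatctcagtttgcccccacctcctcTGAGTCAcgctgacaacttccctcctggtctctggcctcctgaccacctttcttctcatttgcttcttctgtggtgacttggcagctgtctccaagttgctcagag
Trem2, chr17:48346151-48346450: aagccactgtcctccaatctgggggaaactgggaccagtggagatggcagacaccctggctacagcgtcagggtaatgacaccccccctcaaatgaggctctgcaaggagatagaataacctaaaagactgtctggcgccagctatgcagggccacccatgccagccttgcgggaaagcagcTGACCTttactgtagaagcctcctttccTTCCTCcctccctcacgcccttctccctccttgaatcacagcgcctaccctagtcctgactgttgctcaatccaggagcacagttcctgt
The following 5 motifs were searched on both strands. TGACTCA, the AP-1 site, was found in *Gpnmb* at position 9 after the start site and, as its reverse complement, in *Itgax* 56 bases before it, and 5.20% of 32851 mouse promoters hold it. GAGGAA, which holds the core of ETS-family sites such as that of PU.1, was found in *Trem2*, *Cd63*, and *Spp1*, against 28.3% of promoters. AGGTCA, the hexamer of nuclear receptors, was found in *Trem2*, against 16.3%. The motifs of the MiT/TFE factors, which drive lysosomal and pigment genes, were CACGTG, held by 7.15% of promoters, and TCATGTG, held by 3.77%. Neither string occurred in the 8 promoters of the 7 genes, of which *Spp1* has a pair. Some start sites lay inside the gene span of GENCODE M21: 8356 bases past the gene start for *Cd63*, 6109 for *Lgals3*, and 1074 for the second of *Spp1*. For *Cd63* and *Lgals3*, the sequence before the GENCODE start was therefore not searched. No motif overlapped another, and a match or its absence in these windows describes letters only.

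The MiT/TFE factors and *Pmel*, the closest relative of *Gpnmb*, all had fold changes above 1, and none of these 5 genes passed in edgeR or DESeq2, although 3 had an unadjusted p under 0.05. *Mitf* averaged 51.6 ± 17.2 CPM with vehicle and 60.0 ± 14.2 CPM with HPβCD (SD, n = 4), a log2 fold change of 0.22 (adjusted p 0.657). *Tfe3* gave 0.34 (adjusted p 0.139), with groups that did not overlap, and *Tfeb* gave 0.31 (adjusted p 0.249). Melanocyte markers summed to 2.55 to 3.81 CPM in vehicle and 9.38 to 13.8 CPM in HPβCD libraries. Nearly all of the difference lay in *Mlana*, which passed at a log2 fold change of 3.18 (adjusted p 0.0222) and stayed under 11 CPM. *Pmel* was at 0.74 and 1.31 CPM, *Slc24a5* at 0.86 and 0.70 CPM, and *Tyr*, the enzyme that defines pigment cells, had no read in any library, where 3 counts would be 0.0861 to 0.184 CPM.

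*Cd63* (ENSMUSG00000025351, chr10:128900989-128912822, plus strand) encodes a tetraspanin of late endosomes and exosomes. It was at 196, 211, 146, and 277 CPM in vehicle 1 to 4 and at 284, 347, 360, and 333 CPM in HPβCD 1 to 4. The groups were apart by a small margin, between vehicle 4 and HPβCD 1. It had a log2 fold change of 0.67 (SE 0.20, adjusted p 0.0852 in edgeR, 0.0254 in DESeq2) and was 0.45 without vehicle 1 and 3. A pseudogene copy, *Cd63-ps*, took 1.64% of the pooled counts.

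*Cd9* (ENSMUSG00000030342, chr6:125460266-125494791, minus strand) encodes a tetraspanin of the cell surface that is also made by oligodendrocytes and endothelium. It was at 313, 261, 130, and 371 CPM in vehicle 1 to 4 and at 293, 313, 384, and 285 CPM in HPβCD 1 to 4. Only vehicle 3 stood low, and without it the log2 fold change went from 0.24 (SE 0.29, 95% interval -0.42 to 0.91, adjusted p 0.632) to 0.02. Oligodendrocyte markers (among them *Mbp* and *Mobp*), which summed to 1518 to 4876 CPM in vehicle libraries, were 158 to 1930 CPM in HPβCD libraries, with overlap. All 6 had fold changes under 1, but 0 passed in edgeR, 0 had an unadjusted p under 0.05, and DESeq2 called 1 lower. An antisense gene overlaps 10.7% of the exon length of *Cd9*, and the strand setting of the counting is not given in the sources used here.

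Of 11 further tetraspanins and their partners, 9 had fold changes above 1 and 1 passed in edgeR, *Ptgfrn*, a binding partner of CD9 and CD81 (log2 fold change 0.91, adjusted p 0.0483). The list's median was 0.36. Its genes with the highest CPM were *Cd53*, a leukocyte tetraspanin (0.52, adjusted p 0.177), *Cd81* (0.13, adjusted p 0.658), and *Tspan3* (-0.21, adjusted p 0.411).

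The secreted proteins come next. *Spp1* (ENSMUSG00000029304, chr5:104435118-104441050, plus strand) encodes osteopontin, a phosphoprotein of bone matrix that macrophages secrete in injured tissue. It was at 1182, 2514, 1387, and 2897 CPM in vehicle 1 to 4 and at 1677, 1619, 2947, and 2224 CPM in HPβCD 1 to 4. Both groups spanned almost the same range. That gave a log2 fold change of 0.09 (SE 0.34, adjusted p 0.896), and the 95% interval of -0.68 to 0.86 does not reach a doubling or a halving. Without vehicle 1 and 3 it was -0.34, so its sign depends on those libraries. A predicted gene on the same strand overlaps 18.8% of the exon length of *Spp1*, and htseq-count leaves out reads that fall on more than 1 gene in its usual mode.

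Of 10 genes for osteopontin receptors, 9 were tested, 8 had fold changes above 1, and 1 passed in edgeR, the integrin chain *Itgb5* (log2 fold change 0.70, adjusted p 0.0483). *Itgb1* (0.55, adjusted p 0.213), *Itgav* (0.03, adjusted p 0.904), and *Itgb5* had the highest CPM of the list. Bone cells that also make *Spp1* were sought by their markers. Osteoblast markers (led by *Dmp1*, *Sp7*, and *Ibsp*) summed to at most 7.69 CPM in any library. Osteoclast markers summed to 120 to 306 CPM in vehicle and 273 to 412 CPM in HPβCD libraries, nearly all of it *Ctsk* and *Acp5*, which macrophages share, while *Dcstamp* was at 0.66 and 0.58 CPM.

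*Lgals3* (ENSMUSG00000050335, chr14:47367751-47386160, plus strand) encodes galectin-3, a lectin that binds damaged lysosomes and is secreted by phagocytes. It was at 202, 272, 302, and 279 CPM in vehicle 1 to 4 and at 805, 625, 661, and 312 CPM in HPβCD 1 to 4. HPβCD 4 lay barely above vehicle 3, and the other 3 HPβCD libraries were at over 600 CPM. The log2 fold change was 1.19 (SE 0.28, 95% interval 0.55 to 1.83), with an adjusted p of 0.0624 in edgeR and 0.00182 in DESeq2. Without HPβCD 4 it passed in edgeR, at 1.41 and an adjusted p of 0.0297. Among the other galectins, 4 of 5 tested had fold changes above 1 and none passed in edgeR, where 2 had an unadjusted p under 0.05 and DESeq2 called 1. *Lgals1* had a log2 fold change of 1.12 (adjusted p 0.0658) with groups that did not overlap, *Lgals3bp* 0.79 (adjusted p 0.141), and *Lgals9* 0.46 (adjusted p 0.267).

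The last group by role handles fatty acids. *Lpl* (ENSMUSG00000015568, chr8:68880491-68907448, plus strand) encodes lipoprotein lipase, which releases fatty acids from circulating and engulfed lipoproteins. It was at 879, 2048, 622, and 1187 CPM in vehicle 1 to 4 and at 772, 1200, 1058, and 1070 CPM in HPβCD 1 to 4. Vehicle 2 was by far the highest library. This gave a log2 fold change of -0.21 (SE 0.35, 95% interval -0.999 to 0.583, adjusted p 0.743). Without vehicle 2 it was 0.20, and without vehicle 1 and 3 it was -0.64 (adjusted p 0.179). Of 11 partners of the enzyme, 5 were tested and none passed in edgeR or DESeq2, although 2 had an unadjusted p under 0.05. The maturation factors *Sel1l* (0.13, adjusted p 0.610) and *Lmf1* (0.66, adjusted p 0.142) and the inhibitor *Angptl4* (0.60, adjusted p 0.218) had the highest CPM. *Apoa5* had no read in any library.

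*Fabp5* (ENSMUSG00000027533, chr3:10012548-10016607, plus strand) encodes a fatty acid-binding protein of skin, macrophages, and brain capillaries. It was at 1093, 922, 2040, and 1669 CPM in vehicle 1 to 4 and at 5958, 3628, 4412, and 1967 CPM in HPβCD 1 to 4. HPβCD 4 was under vehicle 3, and the other 3 HPβCD libraries were far above every vehicle library. Its log2 fold change was 1.48 (SE 0.38, 95% interval 0.61 to 2.35), the largest of the 10, with an adjusted p of 0.0688 in edgeR and 0.00185 in DESeq2. It passed in edgeR without vehicle 3 (1.70, adjusted p 0.0473). A pair of pseudogenes with stretches of at least 300 bases at over 95% identity took 0.244% of the pooled counts.

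*Fabp4* (ENSMUSG00000062515, chr3:10204088-10208576, minus strand) encodes the fatty acid-binding protein of adipocytes, capillary endothelium, and plaque foam cells. It was at 14.6, 28.8, 19.1, and 25.0 CPM in vehicle 1 to 4 and at 25.2, 30.1, 33.7, and 44.2 CPM in HPβCD 1 to 4. HPβCD 4, the lowest library of its group for *Fabp5* and *Lgals3*, was the highest for *Fabp4*. Its log2 fold change was 0.61 (SE 0.25, adjusted p 0.159). Adipocyte markers summed to at most 1.07 CPM in any library, and *Lep* had no read. Endothelial markers (led by *Cdh5*, *Flt1*, and *Slco1a4*) summed to 600 to 693 CPM in vehicle and 643 to 998 CPM in HPβCD libraries, with 8 of 9 fold changes above 1 and none passing in edgeR, where 4 had an unadjusted p under 0.05 and DESeq2 called 2 higher and 1 lower.

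Of 8 other fatty acid-binding genes, 2 were tested, and neither passed in edgeR. *Fabp7*, the form of astrocytes and glial precursors, averaged 42.1 ± 19.6 CPM with vehicle and 16.8 ± 4.62 CPM with HPβCD (SD, n = 4), a log2 fold change of -1.32 with an adjusted p of 0.0801 in edgeR and 0.0105 in DESeq2. *Fabp3* gave -0.34 (adjusted p 0.807), a sign that rested on 10.47 CPM in vehicle 3, the library richest in neuron markers, against 0.92 to 2.09 CPM in the other vehicle libraries and 1.90 to 4.99 CPM in HPβCD libraries. *Fabp1*, *Fabp6*, *Fabp9*, and *Pmp2* had no read in any library. Astrocyte markers (led by *Slc1a2*, *Gfap*, and *Aqp4*) summed to 2124 to 8976 CPM in vehicle and 607 to 2436 CPM in HPβCD libraries, with overlap. All 6 had fold changes under 1 and 0 passed in edgeR, where 4 had an unadjusted p under 0.05 and DESeq2 called 4 lower.

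**Figure D2:**
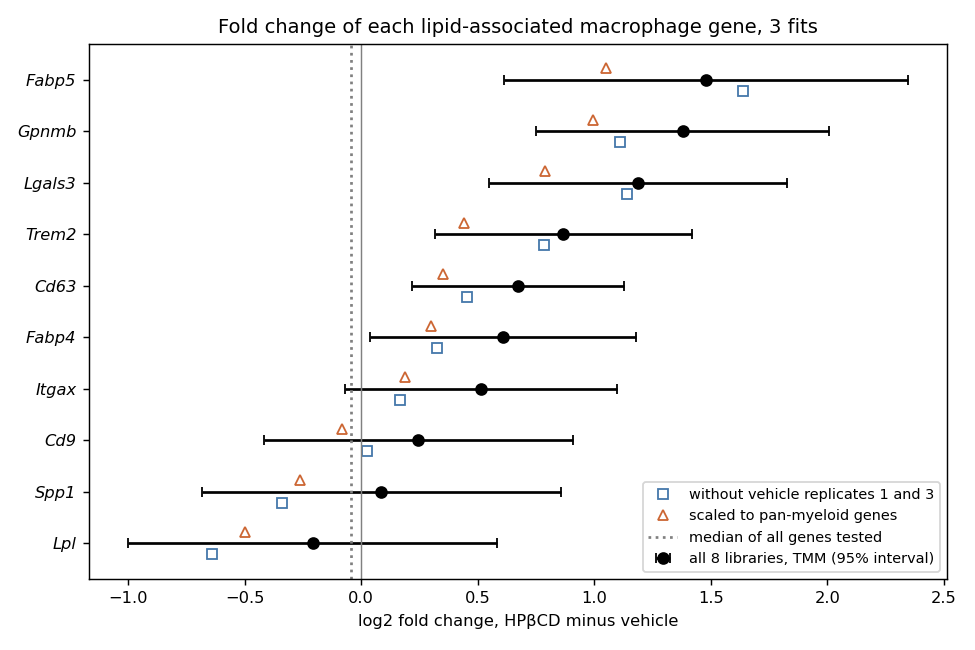
Log2 fold change (x axis, HPβCD minus vehicle) of the 10 genes with all 8 libraries and TMM scaling (black, with 95% intervals), without vehicle replicates 1 and 3 (squares), and scaled to pan-myeloid genes (triangles). The dotted line is the median of all tested genes, -0.05, and *Fabp5*, *Gpnmb*, and *Lgals3* have the 3 highest values in each of the 3 fits.

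The wider lipid-associated macrophage program was then examined through 30 further genes, all of them tested. Of these, 28 had fold changes above 1, against 45.9% of all tested genes, with a median log2 fold change of 0.83. For 18 the groups did not overlap, higher in HPβCD libraries, against 8.77% of all tested genes. In edgeR 1 passed, *Creg1*, a lysosomal glycoprotein (400.1 ± 75.9 CPM with vehicle, 972 ± 116 CPM with HPβCD, log2 fold change 1.28, adjusted p 0.0389). An unadjusted p under 0.05 was reached by 20, all higher, against 11.8% of all tested genes. DESeq2 called 18 higher, against 5.92%. The most abundant were *Lyz2*, the lysozyme of myeloid cells (0.93, adjusted p 0.122), *Ctsd* (0.98, adjusted p 0.0774), and *Ctsb* (0.85, adjusted p 0.0829), the latter pair being lysosomal proteases. Over all 103 related genes, 83 were tested and 67 had fold changes above 1. In edgeR, 3 were called higher and 0 lower, against 1.17% and 0.774% of all tested genes. There 38 had an unadjusted p under 0.05, against 4094 of all 14736 genes. DESeq2 called 24 higher and 2 lower, against 5.92% and 11.1%. Without vehicle 1 and 3, edgeR called 1 higher and 1 lower, against 0.485% and 0.856%.

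**Figure D3:**
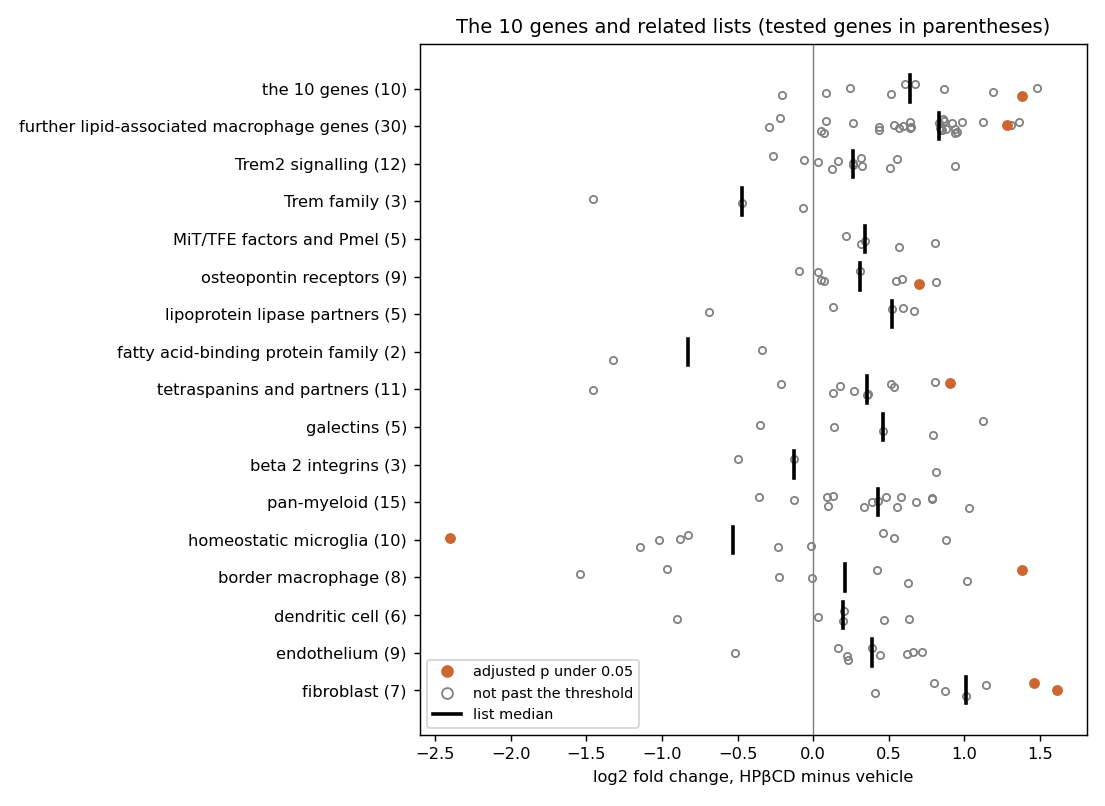
Log2 fold change (x axis, HPβCD minus vehicle) of each tested gene in the 10 genes, the related lists, and marker lists of cells near to macrophages, with the number of tested genes in parentheses. Filled points passed edgeR's test, and black bars are list medians, which were 0.64 for the 10 genes, 0.83 for further lipid-associated macrophage genes, 0.43 for pan-myeloid genes, and -0.53 for homeostatic microglia.

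The level of myeloid transcripts was described with 15 pan-myeloid genes (led by *C1qb*, *C1qc*, and *C1qa*), which do not count cells. They summed to 2756 to 4086 CPM in vehicle and 3960 to 7391 CPM in HPβCD libraries, with 13 fold changes above 1, a median of 0.43, and none passing in edgeR, where 5 had an unadjusted p under 0.05 and DESeq2 called 4. The highest sum was that of HPβCD 3 alone. HPβCD 1, 2, and 4 were at 4661, 4979, and 3960 CPM, the last of them under vehicle 4. The mean log2 CPM of the 15 pan-myeloid genes was subtracted from the log2 CPM of each of the 10 genes in the same library. *Gpnmb* lay 4.40, 4.91, 4.97, and 5.13 above the pan-myeloid mean in vehicle 1 to 4 and 5.93, 5.88, 5.82, and 5.86 above it in HPβCD 1 to 4. The groups stayed apart by 1.02 in their means, and the HPβCD libraries, which ran from 8476 to 14613 CPM for *Gpnmb*, differed by an SD of only 0.05 on this scale, against 0.32 in vehicle libraries. It was the 1 gene of the 10 with groups apart, against 1.17% of all tested genes.

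On the same scale the group means differed by 1.07 for *Fabp5*, 0.75 for *Lgals3*, 0.44 for *Trem2*, 0.34 for *Cd63*, 0.25 for *Fabp4*, and 0.20 for *Itgax*. They differed by -0.03 for *Cd9*, -0.22 for *Spp1*, and -0.45 for *Lpl*. For *Fabp5* and *Lgals3*, vehicle 3 lay above HPβCD 3 and HPβCD 4 on this scale. When the 15 genes set the scaling in edgeR, the median of all tested genes moved to -0.39, *Gpnmb* had a log2 fold change of 1.00 with an adjusted p of 0.0553, and none of the 10 passed, against 0.156% of all tested genes called higher. An unadjusted p under 0.05 was reached by *Gpnmb*, *Fabp5*, and *Lgals3*, all higher, against 1.88% of all tested genes. Homeostatic microglia markers (among them *Cx3cr1* and *Olfml3*) were mixed: 7 of 10 had fold changes under 1 and 3 above 1. In edgeR *Siglech* fell by 2.40 on the log2 scale (adjusted p 0.0483), and DESeq2 called 1 of the 10 higher and 3 lower. Their sum was 659 to 1266 CPM in vehicle and 880 to 1380 CPM in HPβCD libraries, with overlap. Border macrophage markers (led by *Stab1*, *Mrc1*, and *F13a1*) were split, with 4 of 8 above 1 and *Stab1*, a scavenger receptor, called higher at 1.38 (adjusted p 0.0483).

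**Figure D4:**
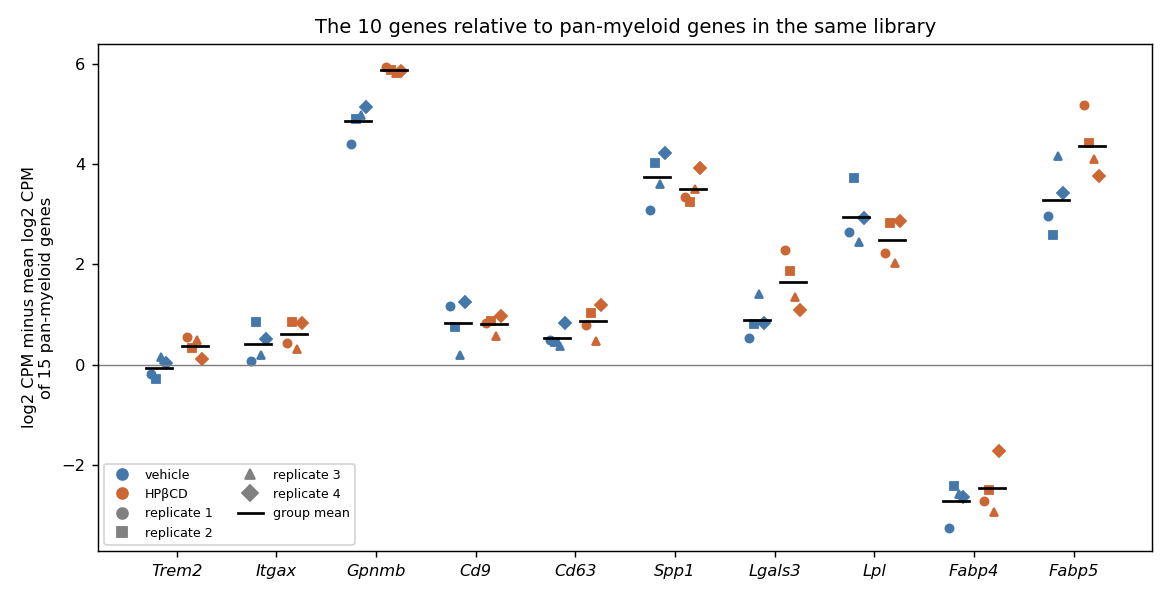
Log2 CPM of each of the 10 genes minus the mean log2 CPM of 15 pan-myeloid genes in the same library (y axis), for 4 vehicle (blue) and 4 HPβCD (orange) libraries, with group means as bars. The 4 HPβCD values of *Gpnmb* lie between 5.82 and 5.93, above all vehicle values, and the groups of the other 9 genes overlap.

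Levels of different genes were compared as TPM, in which counts are divided by the merged exon length of each gene and then by their sum over the library. In vehicle infarcts *Spp1* came first with 2899 ± 1402 TPM, then *Gpnmb* with 1511 ± 500.1 TPM and *Fabp5* with 919 ± 263 TPM (SD, n = 4), and the ranges of neighbours overlapped. *Lgals3* (332 ± 59.7 TPM), *Cd9* (313 ± 128 TPM), and *Lpl* (275 ± 173 TPM) followed and could not be ordered, since their ranges overlapped. *Cd63* was at 134 ± 41.7 TPM, *Itgax* at 97.6 ± 44.2 TPM, *Trem2* at 63.6 ± 11.2 TPM, and *Fabp4* at 11.6 ± 4.37 TPM, and of neighbours among these only *Fabp4* stood apart from the next.

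In HPβCD infarcts *Gpnmb* came first with 4733 ± 1450 TPM, then *Spp1* with 3647 ± 1212 TPM and *Fabp5* with 3222 ± 1492 TPM, and the ranges of these 3 overlapped. *Lgals3* was at 928 ± 361 TPM, *Cd9* at 442 ± 87.9 TPM, *Lpl* at 275 ± 43.2 TPM, *Cd63* at 254 ± 30.1 TPM, *Itgax* at 164 ± 31.0 TPM, *Trem2* at 142 ± 58.4 TPM, and *Fabp4* at 20.8 ± 4.04 TPM. Neighbours with overlapping ranges were *Lgals3* and *Cd9*, *Lpl* and *Cd63*, and *Itgax* and *Trem2*. *Fabp4* was the lowest of the 10 in both groups. The order rests on the length used: some merged exons hold retained introns, such as those of *Fabp4* with 4489 bases against 896 in its principal transcript. With principal transcripts, an alternative chosen after seeing the annotation, *Fabp5* came first in both groups, at 2658 and 8697 TPM, and *Fabp4* stayed last, at 46.3 and 78.6 TPM. The range of *Fabp5* overlapped that of the next gene in both groups, *Spp1* (2523 TPM) in vehicle and *Gpnmb* (6239 TPM) in HPβCD libraries, so the first place could not be told.

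How the genes varied from library to library within groups was described by Pearson's r of log2 CPM centred on group means, over 8 libraries, with no test. The libraries differed in depth and cell content, which all genes of a library share. *Lpl* and *Itgax* were closest, with an r of 0.95, then *Cd9* and *Cd63* with 0.88, *Gpnmb* and *Spp1* with 0.85, *Lgals3* and *Fabp5* with 0.85, and *Gpnmb* and *Trem2* with 0.80. Over both groups, *Fabp5* ran against *Lpl* (-0.59) and *Fabp4* (-0.52). *Trem2* had an r of 0.66 with *Lgals3* and 0.60 with *Fabp5*, while *Gpnmb* had 0.69 with *Itgax*, so the genes did not fall into separate sets. Within vehicle and within HPβCD libraries (n = 4 each), r was -0.73 and -0.60 for *Fabp5* and *Lpl*. It was -0.14 and -0.93 for *Fabp5* and *Fabp4*, and 0.65 and -0.94 for *Lgals3* and *Fabp4*. Some values over both groups thus rest mainly on 1 group.

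**Figure D5:**
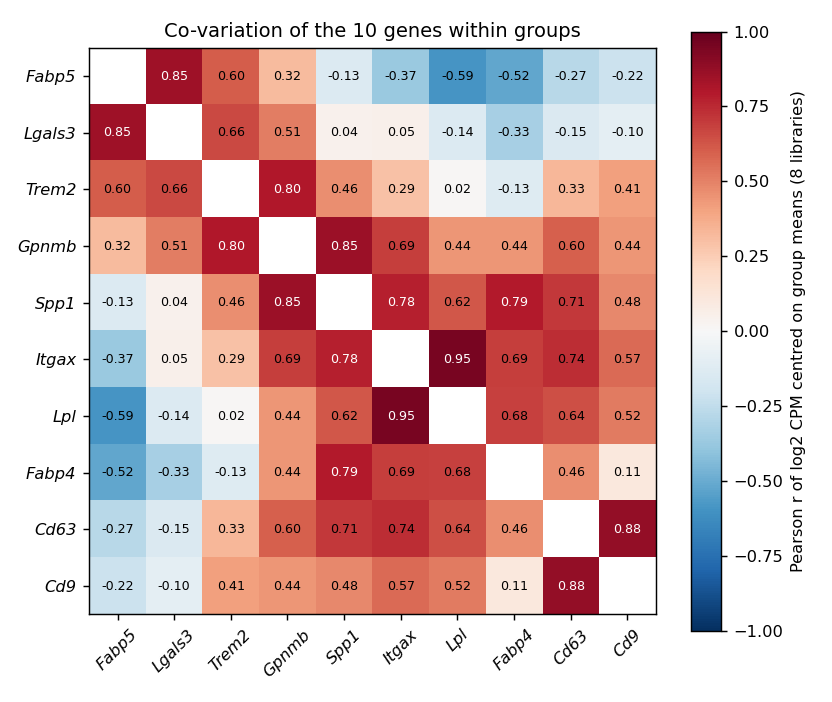
Pearson's r (colour and printed value) between the log2 CPM of each pair of the 10 genes, centred on group means, over 8 libraries. Values run from -0.59 for *Lpl* and *Fabp5* to 0.95 for *Lpl* and *Itgax*.

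Ratios between 2 genes of the same library do not depend on scaling. The log2 ratio of *Gpnmb* to *Spp1* CPM, a pair chosen after its values were seen, was 1.32, 0.88, 1.36, and 0.92 in vehicle 1 to 4 and 2.59, 2.63, 2.31, and 1.93 in HPβCD 1 to 4. The groups were apart, and Pearson's r of *Gpnmb* and *Spp1* was 0.98 within vehicle and 0.63 within HPβCD libraries (n = 4 each). The log2 ratio of *Fabp5* to *Fabp4* was 6.00 ± 0.73 in vehicle and 6.82 ± 1.00 in HPβCD libraries (SD, n = 4), with overlap. That of *Cd63* to *Cd9* was -0.31 ± 0.36 and 0.06 ± 0.15, with overlap.

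The 5 genes most like *Gpnmb* within groups, among 9566 other genes that averaged 10 CPM or more, were *Colgalt1*, *Ctdnep1*, *Tspan4*, *Cdhr1*, and *Dap*, with r between 0.96 and 0.98 over 8 libraries. Of these *Dap* passed in edgeR, from 41.3 to 77.1 CPM (log2 fold change 0.90, adjusted p 0.0483), and *Tspan4*, a tetraspanin, gave 0.80 (adjusted p 0.0634). The 4 most like *Spp1*, the gene with the highest mean TPM over merged exons, were *Lin9*, *Gyg*, *Sgk1*, and *Hpse*, with r between 0.96 and 0.98. Among them *Hpse*, the enzyme that cuts heparan sulfate, passed at 1.03 (adjusted p 0.0499), and *Lin9* gave 0.04 (adjusted p 0.926). Over all tested genes, 1.17% were called higher. Both sets were picked as the highest r among 9566 genes over few libraries, and such a choice raises r.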

How the data were processed

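The authors trimmed reads with Trimmomatic 0.32, aligned them to GRCm38 with STAR 2.5.2b, and counted them with HTSeq, per the labels and methods. The deposited values are raw counts per Ensembl gene, 1 table per library. Summary lines (26.6% to 36.6% of each table) were left out. The 935 identifiers without a symbol held 0.0484% of counts. The 10 genes and all lists were chosen with earlier results of these data known, including the rule for named genes: all 10, and per list those called and the 3 highest in CPM. Some genes that rule names are not reported here. TMM scaling, filterByExpr, and robust quasi-likelihood tests used edgeR 4.0.16 in R 4.3.3, with no covariate, and p values were adjusted by Benjamini-Hochberg. Alternatives used DESeq2 1.42.0, limma 3.58.1, other scalings, no filter, a replicate block, and libraries left out. For log2 CPM, 2 counts were added as a prior. The fits were tested on simulated data. Libraries differed beyond sampling noise (lowest chi-square per degree of freedom 18.9). *Fabp4*, the lowest of the 10 genes, had at least 258 counts per library.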

Additional observations from a re-analysis of the deposited data

Results flagged for a closer look

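Among 40 groups of 4 values scanned, namely the 10 genes in each group as log2 CPM and relative to pan-myeloid genes, 1 held a library far from the others by Dixon's criterion. *Trem2* was at 7.33 log2 CPM in vehicle replicate 4, against 6.94 to 6.99 in the other 3 vehicle libraries. Chance gives about 2 such groups in 40.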

How the results depend on the processing

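*Gpnmb*, *Fabp5*, *Lgals3*, *Trem2*, *Cd63*, *Fabp4*, and *Itgax* kept a fold change above 1 under each of the 18 alternatives, while the call of *Gpnmb* was lost under 12. The count of called genes among the 10, 1 in the report (1.17% of all genes called higher), was 5 with DESeq2 (5.92%) and 4 with limma-voom (11.1%). It was 0 with library totals (0.0475%), pan-myeloid scaling (0.156%), and no filter (0.677%). Without vehicle 1 and 3 it was 0 in edgeR (0.485%), 3 in DESeq2 (4.8%), and 4 in limma-voom (11.3%), the latter pair chosen after seeing the data. Leaving out 1 library gave 0 to 2: 2 without vehicle 3 (2.06% of all genes called higher), 1 without HPβCD 4 (1.82%), where that gene was *Lgals3* in place of *Gpnmb*, and 0 otherwise, although edgeR then called none of all genes without vehicle 1, vehicle 4, HPβCD 2, or HPβCD 3. The count with groups apart, 3 in the report, was 5 with DESeq2 (5.45% of all genes) and with no filter (5.38%), 1 with pan-myeloid scaling (1.21%), 5 with DESeq2 without vehicle 1 and 3 (11.2%), and 3 to 5 when 1 library was left out (5 without vehicle 2, against 12.1%, or HPβCD 4, against 14.3%). The shares for DESeq2 and no filter include low-count genes (26507 and 26720 genes, and 25290 for DESeq2 without vehicle 1 and 3). The report's share, 8.77%, was over 14736 filtered genes, so these shares are not alike. The median log2 fold change was 0.33 with pan-myeloid scaling, 0.31 with limma-voom without vehicle 1 and 3, and 0.54 to 0.77 when 1 library was left out. The count of related genes called in either direction was 3 in the report (1.95% of all genes), 26 with DESeq2 (17%), and 27 with limma-voom (21.9%). Without vehicle 1 and 3 it was 18 with DESeq2 (8.55%) and 28 with limma-voom (22.3%). It was 0 with library totals (0.0746%) and 1 with pan-myeloid scaling (*Fabp7*, lower, 2.47%). When 1 library was left out it was 0 to 7, with 5 without vehicle 3 (4.22%) and 7 without vehicle 2 (3.72%). It was 0 without vehicle 1, vehicle 4, HPβCD 1, HPβCD 2, or HPβCD 3, where at most 0.0266% of all genes were called. *Spp1* turned to -0.35 with limma-voom, -0.0068 with library totals, -0.26 with pan-myeloid scaling, and, without vehicle 1 and 3, -0.34 in edgeR, -0.35 in DESeq2, and -0.56 in limma-voom, with -0.11 to 0.34 when 1 library was left out. *Cd9* turned to -0.044 with limma-voom and -0.082 with pan-myeloid scaling, and *Lpl* ran from -0.42 to 0.20 when 1 library was left out. The causes were not tested. Whether the replicate numbers pair the libraries could not be told from so few libraries. Correlations of same-numbered deviations were -0.257, 0.244, 0.329, and 0.0975, and 3 of 8 libraries correlated best with their own number. With the numbers as a replicate block, 0 of the 10 genes, 0 related genes, and 9 of all genes were called, against 287 without it.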
